A study of Mus musculus with 6 samples.

Results

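Olfactory receptors are the odorant sensors of the nose, and blood stem cells have no known use for most of them. On 6 arrays of stem cell RNA, 620 of the 1078 olfactory receptor genes on the array nevertheless had a probe that was detected. These genes were chosen by a measured value. A probe was taken where its gene name was Olfr followed by a number and its spot was called well above background on 3 or more of the 6 arrays, a call by which the scanner software marks a spot clearly brighter than its surroundings. The choice took 656 of the 1170 olfactory receptor probes, and 514 probes were not detected by the same rule. Another 27 probes, whose names carry letters after Olfr, lie outside the rule. The probes were compared with each other and not with the whole genome, so a detected probe is not proof that its receptor, rather than a related transcript, was present.

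The RNA came from LSK-SLAM cells, a marrow fraction enriched for hematopoietic stem cells (HSC) that carries c-Kit, Sca-1 and CD150 and lacks CD48 and mature lineage antigens. In the 2T-WT group, wild-type fetal liver cells had been passed through serial transplantation with competitor marrow, and the cells were sorted from the bone marrow of lethally irradiated secondary recipients. In the 2T-p190-B-/- group the donor cells lacked p190-B, the protein encoded by Arhgap5, and were otherwise handled in the same way. Each group has 3 arrays of a single colour, and the cells came from independent secondary recipients, while the sample labels do not give the number of mice behind an array. P-values measure the spread between these samples. The cDNA was amplified before labelling, and both groups share this step.

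The olfactory receptors form the largest gene family of the mouse genome. They are receptors with a membrane-spanning serpentine fold, most of them read from a single coding exon, and they lie in clusters on many chromosomes. Each sensory neuron of the nose settles on a single receptor allele and keeps the others silent in closed chromatin. The receptor then couples to the G protein encoded by Gnal, to the adenylyl cyclase Adcy3 and to a cyclic nucleotide-gated channel. A few members are known from tissues outside the nose, among them kidney, sperm, muscle and the carotid body.

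Each probe is a stretch of 60 bases taken from the sense strand of its transcript. Many receptors are close relatives, so some probes for different genes are almost the same sequence, and these allow the signal to be read twin by twin. Of the 9 closest pairs, 3 that show like and unlike behaviour were chosen after their values were seen. They are given 5′ to 3′, with the bases that differ within a pair in capitals. All 6 probes lie on chromosomes 2, 7 and 19 of mm9, the build of the probe annotation.
Olfr1049: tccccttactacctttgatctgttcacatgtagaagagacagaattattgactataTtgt
Olfr1051: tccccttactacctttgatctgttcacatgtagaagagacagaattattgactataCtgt
Olfr476: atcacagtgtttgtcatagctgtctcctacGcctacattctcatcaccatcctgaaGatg
Olfr477: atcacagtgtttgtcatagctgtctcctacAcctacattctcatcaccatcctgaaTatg
Olfr1454: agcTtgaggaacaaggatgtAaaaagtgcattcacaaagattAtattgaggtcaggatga
Olfr1459: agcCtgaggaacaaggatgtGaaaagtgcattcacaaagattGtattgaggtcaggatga

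The probes for Olfr1049 (chr2:86095245-86095304, minus strand) and Olfr1051 (chr2:86116039-86116098, minus strand) differ at 1 base. Values are the processed signal, a background-corrected brightness on a linear scale, in the order 2T-WT replicates 1, 2 and 3 and then 2T-p190-B-/- replicates 1, 2 and 3. Olfr1049 read 4.62, 3.00 and 2.46 and then 2.81, 237 and 3.88, and Olfr1051 read 4.61, 3.00 and 2.46 and then 2.80, 222 and 3.88. Both probes were at background on 5 arrays and bright on the same array, 2T-p190-B-/- replicate 2. With 1 array each, neither gene is counted as detected.

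Olfr476 (chr7:115111537-115111596, plus strand) and Olfr477 (chr7:115134505-115134564, plus strand) differ at 2 bases of the probe. Olfr476 read 14.7, 202 and 20.1 in 2T-WT and 887, 303 and 500 in 2T-p190-B-/-. Olfr477 read 11.5, 211 and 11.4 in 2T-WT and 948, 389 and 574 in 2T-p190-B-/-. Both twins read higher on all arrays without p190-B than on any of 2T-WT, and 2T-WT replicate 2 was the brightest of its group. Their above-background calls were the same on 5 of the 6 arrays, so Olfr476 counts 5 detected arrays and Olfr477 counts 4.

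The last pair went the other way. The probes for Olfr1454 (chr19:13138767-13138826, plus strand) and Olfr1459 (chr19:13220224-13220283, minus strand) differ at 3 bases. Olfr1454 stayed between 2.89 and 9.63 on all 6 arrays, with readings of 4.64, 3.08 and 3.56 in 2T-WT and 2.89, 9.63 and 5.79 in 2T-p190-B-/-. Olfr1459 read 217, 7.47 and 16.9 in 2T-WT and 30.4, 416 and 12.3 in 2T-p190-B-/-, and was detected on 4 arrays.

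Over the family there were 9 pairs of probes for different receptor genes that shared 55 or more of the 60 bases. Their above-background calls matched on a mean of 85.2% of arrays, and in 1 pair a single partner was detected. In the 40 pairs that shared 50 to 54 bases the calls matched on 79.6% of arrays, and in the 130 pairs that shared 45 to 49 bases on 63.7%. Among the 661187 pairs that shared fewer than 30 bases they matched on 52.3%. The pairs overlap in their probes and are given as a description.

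Detection was broad on every array. Of the olfactory receptor probes, 37.9%, 59.4% and 45.3% were well above background in 2T-WT, replicates 1 to 3 in order, and 68.5%, 42.6% and 58.3% in 2T-p190-B-/-. The group means were 47.5% ± 10.9 (SD, n = 3) and 56.5% ± 13.1 (SD, n = 3), a difference of 8.92 percentage points that is smaller than the spread between arrays (exact two-sided permutation p = 0.50, where 3 arrays against 3 cannot give less than 0.1). The ranges of the groups overlap. On slide 2, which alone holds both genotypes, the 2T-WT arrays read 59.4% and 45.3% and the 2T-p190-B-/- arrays 68.5% and 42.6%, and the genotypes overlap there too. The same test was run on 24 lists of genes in all, and after Benjamini-Hochberg adjustment the smallest p was 0.87. Before adjustment the vomeronasal type 2 probes alone reached the least possible value, with a difference of 20.5 points. All other probes gave 48.7%, 66.7% and 50.8% and then 73.2%, 53.3% and 64.4%, nearly the same order of arrays as for the olfactory receptor probes. The spots of the negative control probe, 153 on each array, were called in 4.58%, 3.27% and 0% and then 0%, 2.61% and 0.654%.

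**Figure D1:**
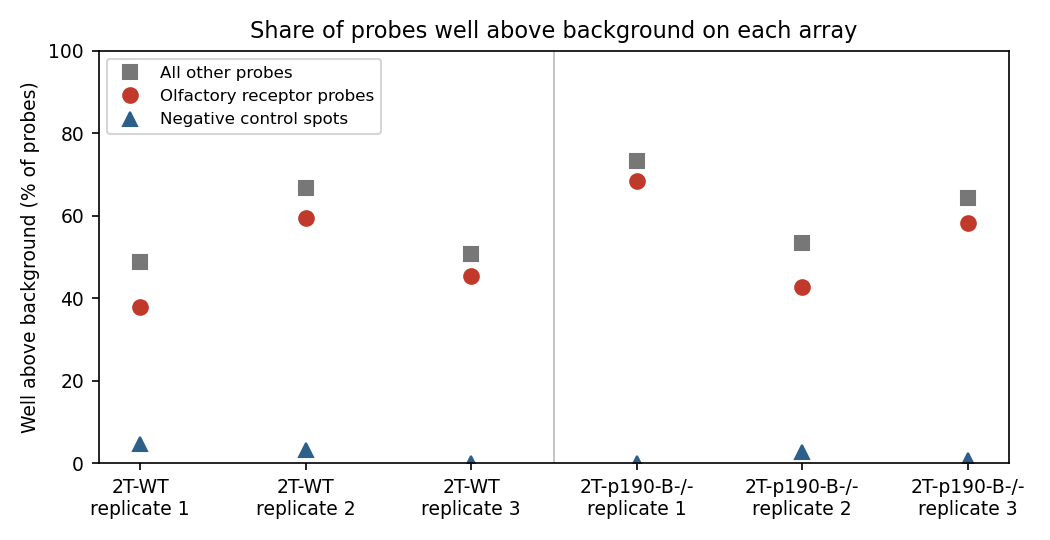
Percent of probes well above background (vertical axis) on each of the 6 arrays (horizontal axis), for olfactory receptor probes (circles), all other probes (squares) and spots of the negative control probe (triangles). Olfactory receptor probes lie between 37.9% and 68.5%, below all other probes on each array, and the negative control spots lie at 4.58% or less.

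Most receptor probes were neither always on nor always off. Of the 1170 probes, 218 were above background on 0 arrays, 177 on 1, 119 on 2, 91 on 3, 124 on 4, 179 on 5 and 262 on all 6. Of all other probes, 35.3% were above background on all 6 arrays, against 22.4% of the olfactory receptor probes. At 3 or more arrays the shares were 64.1% and 56.1%. These are the calls that the members were chosen by. Just inside the threshold, the 91 probes with 3 arrays had a median signal of 40.3 (quartiles 22.9 and 88.7) where they were above background and 9.46 where they were not. Just outside, the 119 probes with 2 arrays had 36.7 (quartiles 22.6 and 85.6) and 8.26.

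**Figure D2:**
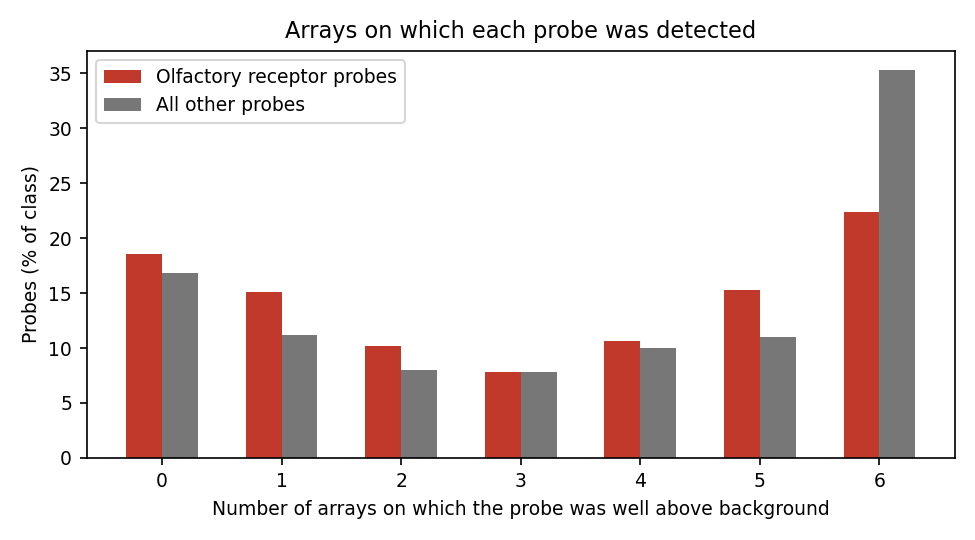
Percent of probes (vertical axis) by the number of arrays on which the probe was well above background (horizontal axis), for olfactory receptor probes and all other probes. The receptor probes are spread over the whole range, with 18.6% on 0 arrays and 22.4% on 6, where all other probes reach 35.3%.

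A choice made in one genotype can be read in the other. Of the 328 receptor probes selected on all 3 2T-WT arrays, 99.4%, 81.1% and 98.5% were also above background in 2T-p190-B-/-, replicates 1 to 3 in order. Of the 404 selected for no 2T-WT array, 31.9%, 12.6% and 19.1% were. In the reverse direction, 72.5%, 95.1% and 78.1% of the 429 probes selected on all 3 2T-p190-B-/- arrays were above background on the 2T-WT arrays, and 5.45%, 12.4% and 6.55% of the 275 selected for none. For the 14795 other probes selected on all 3 2T-WT arrays the shares were 99.6%, 91.8% and 98.8%, higher than for receptors on each array.

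Repeated spots show how far readings of the same sample on the same array differ. The array carries 13 olfactory receptor probes in 7 to 10 usable copies each. In the 34 cases of a probe on an array with every copy above background, the SD between copies in log2 units was 0.09 at the median and 0.34 at most. In 32 further cases no copy was above background, and in 12 the copies were mixed. In the mixed cases the SD between copies reached 1.15, for Olfr687 on 2T-WT replicate 1. Of these 13 probes 6 are members, and between arrays of a genotype the same 6 had a median SD of 1.46. That value takes in arrays where a probe was not above background, which the 0.09 leaves out.

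Olfr713 had median signals over its copies of 6.72, 36.5 and 10.1 in 2T-WT and 1576, 661 and 124 in 2T-p190-B-/-. On 2T-p190-B-/- replicate 1 its copies ran from 1507 to 1642. Olfr868 read 41.2, 93.5 and 45.8 in 2T-WT and 1148, 418 and 476 in 2T-p190-B-/-. For both genes the 3 arrays of 2T-p190-B-/- lay above the 3 of 2T-WT. Olfr53 read 152, 326 and 20.2 in 2T-WT and 380, 282 and 2562 in 2T-p190-B-/-, so its range within a genotype was far wider than between its copies, and the groups overlap. Olfr1307 read 123, 29.7 and 8.03 in 2T-WT and 82.4, 59.4 and 160 in 2T-p190-B-/-, again with overlap. The groups also overlap for Olfr586, at 349, 120 and 3.98 and then 233, 43.0 and 59.0, and for Olfr181, at 8.66, 20.5 and 39.9 and then 29.9, 75.9 and 82.3. Examples of the undetected probes with copies were chosen after their values were seen. Olfr148 was above background on 2T-p190-B-/- replicates 2 and 3 alone, at 155 and 78.4, and Olfr92 on 2T-p190-B-/- replicate 1 alone, at 80.0. Olfr154 had no copy above background on any array, and its medians ran from 2.47 to 9.43.

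**Figure D3:**
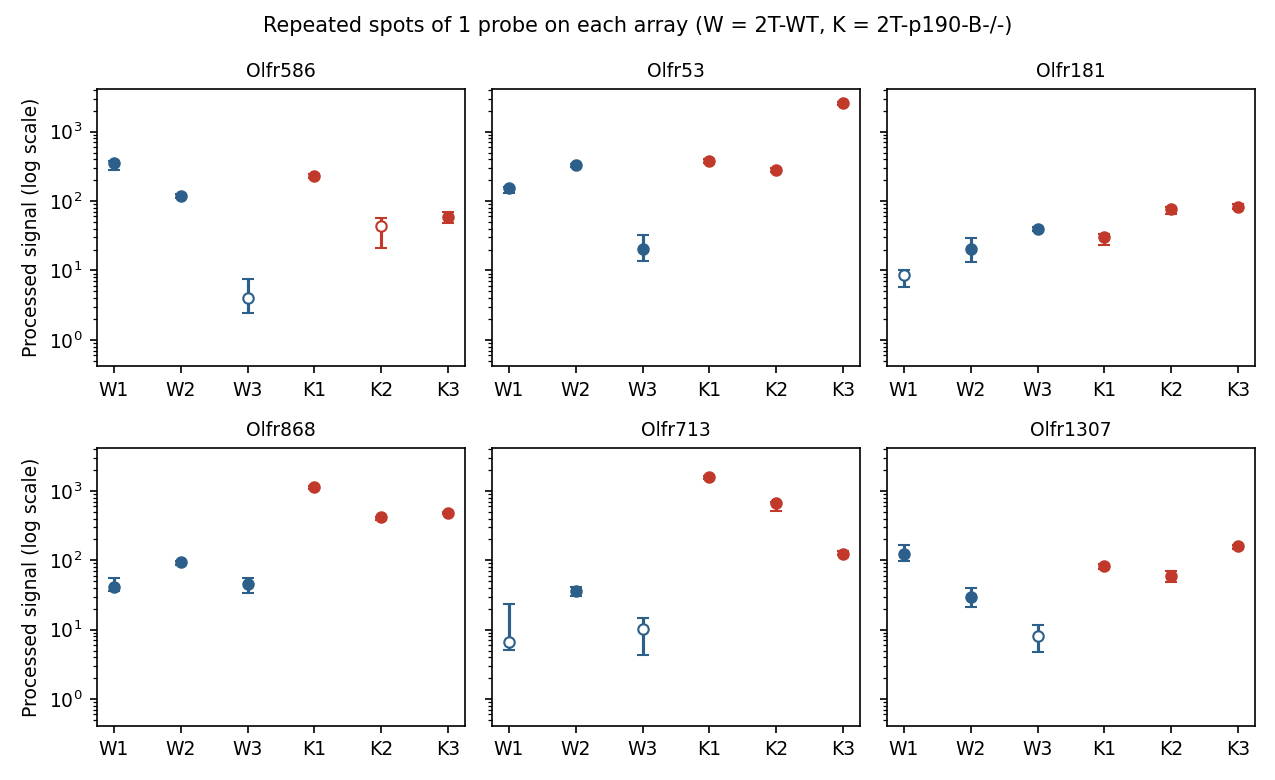
Processed signal (vertical axis, log scale) of the 6 detected receptor probes that are spotted many times, on each array (W1 to W3, 2T-WT replicates; K1 to K3, 2T-p190-B-/- replicates). Points are medians over copies, bars run from the lowest to the highest copy, and open points mark arrays where fewer than 50% of copies were well above background. Copies lie close together on bright arrays while arrays of a genotype differ, as for Olfr53 with 20.2 on 2T-WT replicate 3 and 326 on 2T-WT replicate 2.

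The spread between arrays was large for members and for other probes alike. To compare arrays, each signal was divided by the 75th percentile of its array and taken as log2, called the scaled log2 signal below. The median SD between arrays of a genotype was 1.09 over the 652 members with enough values and 1.06 over the 24475 other probes tested. Among probes on all 6 arrays it was 0.87 for 262 members and 0.89 for 13489 other probes. As a description across members, Pearson's r between scaled log2 signals was 0.483 to 0.693 for arrays of the same genotype and 0.401 to 0.650 for arrays of different genotypes. Across the other probes tested the ranges were 0.704 to 0.802 and 0.671 to 0.779. Of the receptor probes above background on either array of a pair, 52.4% to 73.2% were above it on both within a genotype and 50.5% to 73.7% between genotypes.

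Detected and undetected receptor probes differed in base composition, which the choice did not use. Detected probes had a median of 41.7% G and C (quartiles 38.3% and 45.0%) and undetected probes 36.7% (quartiles 35.0% and 40.0%). From 0 to 6 arrays the median went through 35.0%, 36.7%, 38.3%, 40.0%, 41.7%, 41.7% and 43.3%. Of 546 receptor probes with 35% to under 40% G and C, 35.2% were detected. The share was 68.6% of 322 probes from 40% to under 45%, 81.1% of 238 from 45% to under 50%, 91.3% of 23 from 50% to under 55% and 96.4% of 28 at 55% or more. All other probes followed the same course, with 41.3%, 64.4%, 79.6%, 92.6% and 96.2% detected. The median G and C content was 40.0% over all receptor probes and 41.7% over all other probes, and the part of base composition in the gap between 56.1% and 64.1% detected was not tested.

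**Figure D4:**
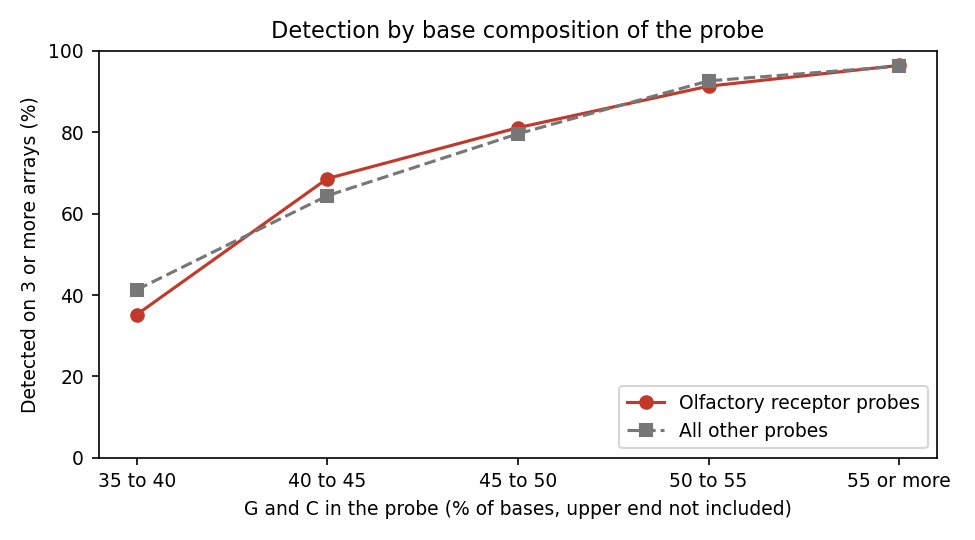
Percent of probes detected on 3 or more arrays (vertical axis) by the percent of G and C among the bases of the probe (horizontal axis), for olfactory receptor probes (circles) and all other probes (squares). Both lines climb together, from 35.2% and 41.3% in the lowest class shown to 96.4% and 96.2% in the highest.

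The probes for Olfr545, a class I receptor, differ in G and C content. They were chosen as an example after their values were seen and are printed with G and C in capitals. The first (chr7:109642620-109642679, minus strand) holds 43.3% G and C and the second (chr7:109642347-109642406, minus strand) 55.0%.
Olfr545 probe 1: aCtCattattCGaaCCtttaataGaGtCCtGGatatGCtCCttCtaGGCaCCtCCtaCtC
Olfr545 probe 2: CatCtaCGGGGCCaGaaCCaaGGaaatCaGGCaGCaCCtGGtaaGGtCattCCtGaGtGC
Probe 1 read 9.45, 2.99 and 2.74 in 2T-WT and 112, 11.0 and 44.1 in 2T-p190-B-/-, above background on 2 arrays. Probe 2 read 1301, 930 and 236 in 2T-WT and 1005, 419 and 341 in 2T-p190-B-/-, above background on all 6.

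Of 92 receptor genes with 2 probes, 36 had both probes detected, 31 a single probe and 25 neither. The share with a single probe detected was 33.7%, against 41.2% of 5226 other genes with 2 probes. Olfr1036 had 1 probe (chr2:85915196-85915255) on all 6 arrays and another (chr2:85915771-85915830) on none. The detected probe read 277, 380 and 102 in 2T-WT and 239, 118 and 183 in 2T-p190-B-/-. Olfr1037 had probes that abut each other, detected on 1 array and on 4. The 2 probes for Olfr1052 even overlap, and are shown with their 25 shared bases in capitals (chr2:86138819-86138878 and chr2:86138854-86138913, plus strand).
Olfr1052 probe 1: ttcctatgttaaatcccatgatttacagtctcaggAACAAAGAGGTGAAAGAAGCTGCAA
Olfr1052 probe 2: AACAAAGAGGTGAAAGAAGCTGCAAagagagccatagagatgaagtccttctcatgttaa
Probe 1 read 15.4, 2.93 and 2.61 in 2T-WT and 2.84, 10.8 and 14.6 in 2T-p190-B-/-, above background on none. Probe 2 read 14.1, 99.1 and 45.3 in 2T-WT and 83.4, 96.0 and 80.7 in 2T-p190-B-/-, above background on 5.

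Detected receptors were spread over the genome. With a gap of over 1 Mb as the border, the receptor probes fall into 48 clusters, and the 16 clusters with 20 or more probes had between 35.7% and 85.0% of their probes detected. The largest cluster (chr2:85171954-90165272) had 121 of 229 probes detected. The class I receptors, which resemble the receptors of fish, sit in the cluster at chr7:109625402-112517830, where 85 of 141 probes were detected (60.3%). The lowest share was at chr16:58760419-59361304, with 10 of 28 probes and a median of 35.0% G and C. The highest was at chr7:147347974-147891090, with 17 of 20 probes and a median of 45.0%. Of 1162 receptor probes matched to the RefSeq gene table of GRCm38.p6, 4 belong to genes that overlap another protein-coding gene outside the family, and all 4 were detected. Within 10 kb of such a gene 21 of 36 were detected (58.3%), from 10 to 100 kb 267 of 427 (62.5%) and beyond 100 kb 362 of 695 (52.1%). The median G and C content of the probes in these 3 classes was 45.0%, 41.7% and 38.3%, and it was 48.3% for the 4 probes of overlapping genes.

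Promoters were read from sequence as well. RefSeq promoters of GRCm38.p6, 300 bases each, were matched for both sets, 530 promoters of detected and 377 of undetected receptor genes. The median G and C content was 36.0% and 34.3%, against 52.7% over all 32851 promoters. The homeodomain core TAATTA was present in 18.5% and 19.1% (all promoters 5.29%). The box TATAAA was present in 37.7% and 44.6% (all promoters 13.6%). The core AGATAA, bound by the blood factors Gata1 and Gata2, was present in 25.8% and 30.5% (all promoters 11.2%). A core of the Ebf factors, which act in olfactory neurons and B cells, was rare, in 0.189% and 1.06% (all promoters 0.904%). Both strands were searched, and letters that are common in AT-rich sequence are frequent here in both sets.

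Other receptor families and genes typical of other tissues were detected as well. Of the vomeronasal receptor genes, the pheromone sensors, 103 of 172 of type 1 (59.9%) and 62 of 101 of type 2 (61.4%) had a probe on 3 or more arrays. The counts were 25 of 35 for type 2 taste receptors, 7 of 14 for trace amine-associated receptors and 4 of 7 for formyl peptide receptors. Of 35 genes typical of 6 other tissues, 25 were detected (71.4%). By tissue these were 5 of 6 of lens, 5 of 6 of retina, 6 of 7 of sperm, 5 of 7 of pancreas, 3 of 5 of pituitary and 1 of 4 of milk. Ins1 and Ins2, which encode insulin, were on all 6 arrays, and Csn1s1 of milk was on none. Over all gene names outside the olfactory receptors 68.7% had a detected probe, against 57.5% of the olfactory receptor genes. Of the list of genes that mark olfactory sensory neurons, 9 of 13 on the array were detected. Omp, Gnal, Adcy3 and Cnga2 were above background on all 6 arrays, while Cnga4 and Rtp1, which helps receptors reach the cell surface, were on none.

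The markers of the sorted cells were not complete by the same rule. Ly6a, which encodes Sca-1, was above background on all 6 arrays, with Mecom, Tek and Fgd5, and Kit and Cd34 on 5. Slamf1, which encodes CD150, and Procr were on none, and Meis1 was on 1. Cd48, whose protein the sort excludes, was on all 6. Of 12 genes that every cell uses 10 were detected, and B2m and Sdha were on none. Of the lists for other blood cells, 4 of 7 genes of red cell precursors, 6 of 8 of neutrophils, 5 of 6 of T lymphocytes and 1 of 5 of megakaryocytes were detected. Hbb-b1 and S100a9 were on none, and Cd3e, Cd79b, Elane and Hba-a1 on all 6. The part of other cells in the receptor signal was not tested. The probe for Arhgap5 was too dim to check the genotypes.

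The steadiest receptors varied less than most. Among the 262 receptor probes on all 6 arrays, the SD of the scaled log2 signal over the arrays had a median of 1.02 and ran from 0.23 to 2.81, and the 6 smallest values were selected for naming. Olfr519, the lowest at 0.23, read -0.32, -0.57 and -0.11 in 2T-WT and -0.29, 0.11 and -0.15 in 2T-p190-B-/-. Probe 2 for Olfr1388 followed at 0.27, with 0.30, -0.20 and 0.17 and then 0.43, 0.38 and -0.17. Its neighbour, probe 1 for the same gene, had an SD of 2.72, with 5.18, -0.59 and -1.94 and then 1.64, 0.73 and 4.05. The SD was 0.32 for Olfr1442, 0.35 for Olfr1131, 0.37 for Olfr482 and 0.38 for Olfr996. Their values are the ones the SD was computed from and show no more than that such probes exist.

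Chosen after its values were seen, Olfr821 (chr10:129471243-129471302) was bright on every array. Its signal was 64383, 71262 and 123596 in 2T-WT and 68447, 56408 and 91839 in 2T-p190-B-/-. The groups overlap.

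Several receptors have been described outside the nose, and 14 of the 20 such genes on the array were detected (70.0%). The share was 57.5% over all olfactory receptor genes and 68.7% over all gene names outside that family. Olfr544, a receptor for azelaic acid known from fat and liver, read 2855, 2745 and 570 in 2T-WT and 4150, 3247 and 3893 in 2T-p190-B-/-. Scaled, it averaged 3.84 (SD 0.60, n = 3) in 2T-WT against 3.57 (SD 0.33, n = 3) without p190-B, and the groups overlap. Olfr16, known from sperm and muscle, read 116, 145 and 26.8 in 2T-WT and 604, 636 and 543 in 2T-p190-B-/-. Scaled, it averaged -0.59 (SD 0.45, n = 3) against 0.91 (SD 0.24, n = 3), with all 3 arrays of 2T-p190-B-/- above the 3 of 2T-WT and a limma adjusted p of 0.638. Olfr17 stood the same way, at 9.71, 70.4 and 4.32 and then 441, 196 and 165, where 1 of the 3 2T-WT arrays was above background.

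Olfr2, the octanal receptor, was above background on all 6 arrays, with scaled signals of 0.18, -0.54 and 0.36 in 2T-WT and -1.71, -2.14 and -0.72 in 2T-p190-B-/-. Olfr691, described in kidney, read -0.04, -1.12 and -0.18 and then -2.55, -3.62 and -1.53. Both lay lower on every 2T-p190-B-/- array than on every 2T-WT array, with a limma adjusted p of 0.638 each. For both the order rests on the scaling, since the unscaled signals overlap, at 141, 157 and 69.0 and then 117, 72.5 and 153 for Olfr2 and with 47.4 on 2T-WT replicate 3 but 87.1 on 2T-p190-B-/- replicate 3 for Olfr691. Olfr90 and Olfr56 showed the same scaled order and overlap before scaling as well. Olfr1393, a kidney receptor linked to glucose handling, read 1728, 19.0 and 16.8 and then 230, 505 and 1994, with a range within 2T-WT nearly as wide as over all arrays. Olfr49 was on all 6 arrays, higher on each of 2T-p190-B-/- than on each of 2T-WT, Olfr15, Olfr160 and Olfr653 were on 4 and Olfr73, a receptor for eugenol, was on 3. Olfr545 was detected through its second probe, which also lay lower on each of 2T-p190-B-/- after scaling, at 3.39, 2.03 and 2.13 and then 1.38, 0.39 and 0.43, and overlaps before it. Undetected were Olfr78 of the carotid body and kidney, Olfr558, Olfr140, Olfr151, Olfr155 and Olfr920, and Olfr856 has no probe here.

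Between the genotypes, no detected olfactory receptor passed the test. By limma, with p adjusted by Benjamini-Hochberg over the 25127 probes in the test, 0 of the 652 receptor probes tested had an adjusted p under 0.05, and the background share was 0%. The smallest adjusted p among them was 0.159. The other 4 of the 656 members had too few values. At an unadjusted limma p under 0.05 there were 63 members, 9.66%, 31 of them higher without p190-B and 32 lower, beside 6.58% of all probes tested. Without 2T-p190-B-/- replicate 1 there were 29 (4.47%, beside 4.46% of all probes), and without 2T-p190-B-/- replicate 2 there were 38 (5.85%, beside 4.26%). With the slide as a block there were 74 (11.3%, beside 7.41%) and again 0 after adjustment. The methods' t-test gave 60 (9.20%, beside 7.10%) and, after adjustment, 0.

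The genotypes did not overlap for 132 of the 652 members, 20.2%, beside 16.3% of all probes tested. Of these members 92 lay lower in 2T-p190-B-/- and 40 higher, and of all probes without overlap 2948 were lower and 1138 higher. The median difference, 2T-p190-B-/- minus 2T-WT in scaled log2 signal, was -0.40 over the members (quartiles -1.24 and 0.50) and -0.33 over all probes tested. There were 403 members lower (61.8%, beside 60.7% of all probes tested) and 249 higher. Over the receptor probes that were not detected the median difference was -0.73, with 378 of 511 lower, though these carry background for the most part. The 75th percentile that each array was divided by was 125, 227 and 53.9 in 2T-WT and 385, 321 and 252 in 2T-p190-B-/-. The cause of the shift among undetected probes was not tested. With quantile normalization the median was -0.32 over members and -0.10 over all probes. With normexp background correction it was -0.74 and -0.47, and 509 members were lower (78.1%, beside 69.2% of all probes) and 143 higher. With the slide as a block the medians were -0.59 and -0.47.

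**Figure D5:**
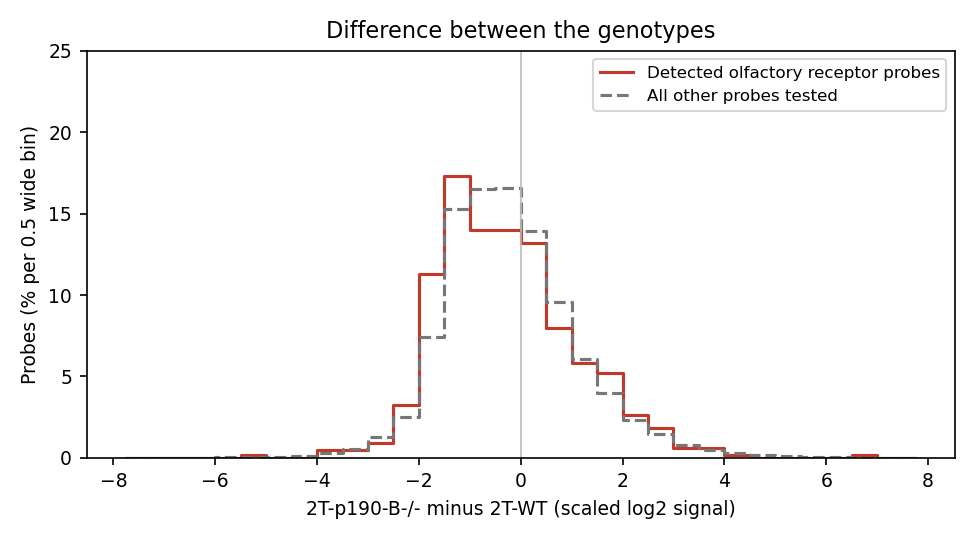
Percent of probes (vertical axis) by the difference of the genotype means, 2T-p190-B-/- minus 2T-WT in scaled log2 signal (horizontal axis, bins 0.5 wide), for detected receptor probes (solid line) and all other probes tested (dashed line). The medians are -0.40 over the members and -0.33 over all probes tested, and both lines span both directions.

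The difference also went with base composition. Members with 35% to under 40% G and C had a median difference of -0.93 (189 probes), those from 40% to under 45% -0.48 (220), those from 45% to under 50% 0.12 (193), those from 50% to under 55% -0.01 (21) and those at 55% or more 0.23 (27). For all other probes the medians in the same classes were -0.65, -0.43, -0.18, -0.19 and -0.17. The part of base composition in the differences between genotypes was not tested.

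Among the members, 126 were at least 2-fold different without overlap, 39 higher and 87 lower in 2T-p190-B-/-. They make up 19.3% of the members tested, beside 14.5% of all probes tested. The 5 with the smallest limma p in each direction were selected. They were selected on this difference, so their values are a description. Where a probe was not above background on every array of its dimmer genotype, the fold is given as a lower bound. It sets the mean scaled log2 signal of the brighter genotype against a mean over the dimmer that takes, on each array not above background, the lowest value of any probe well above background, or the probe's own where higher. Olfr517 (where 23 of the probe's 60 bases are placed, chr7:116011722-116011744) read 5.98, 25.4 and 4.08 in 2T-WT and 1133, 3543 and 2432 in 2T-p190-B-/-. It was above background on 1 2T-WT array and on all 3 2T-p190-B-/- arrays. It was at least 44.2-fold higher in 2T-p190-B-/-, with measured means of -3.75 and 2.76 and a limma adjusted p of 0.159.

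Olfr156 (chr4:43833365-43833424) read 31.0, 214 and 19.4 in 2T-WT and 3942, 5751 and 372 in 2T-p190-B-/-, above background on all 6 arrays. Its difference was 3.88 with an SE of 1.07 and a limma adjusted p of 0.638. Olfr616 (chr7:110712850-110712909), a class I receptor, read 66.9, 88.2 and 8.41 and then 1089, 2084 and 648, above background on 2 of the 3 2T-WT arrays. It was at least 10.3-fold higher, with measured means of -1.65 and 1.85 and a limma adjusted p of 0.503. A second probe for Olfr616, which overlaps the first, also lay higher on every 2T-p190-B-/- array. Olfr713, above background on 1 of the 3 2T-WT arrays, was at least 9.26-fold higher, with measured means of -3.00 and 0.68 and a limma adjusted p of 0.591. Olfr1502, above background on no 2T-WT array, is given below. All 5 kept every 2T-p190-B-/- array above every 2T-WT array, as the selection required.

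In the other direction, Olfr617 (chr7:110732854-110732913), which neighbours Olfr616, read 584, 72.3 and 24.9 in 2T-WT and 20.3, 16.1 and 24.9 in 2T-p190-B-/-. Like the other 4 of this direction, it was called on 2 of the 3 2T-p190-B-/- arrays and on each of 2T-WT. It was at least 9.87-fold lower, with measured means of -0.18 and -3.97 and a limma adjusted p of 0.638. Before scaling the groups meet at 24.9, on replicate 3 of each, so their full separation rests on the scaling. Olfr1337 (chr4:118454250-118454309) read 106, 1108 and 17.6 and then 31.8, 27.5 and 49.7, at least 8.48-fold lower, with means of 0.15 and -3.16. Its unscaled signal on 2T-WT replicate 3 was below all 3 of 2T-p190-B-/-, so the order of the groups rests on the scaling. The same held for Olfr452 (at least 5.90-fold lower, means -0.80 and -3.36), with 16.0 on that array, below each of 2T-p190-B-/-, and for Olfr1263 (at least 4.15-fold lower), with 27.3 against 32.6, 40.8 and 38.0. For Olfr452 the bound is the same as the fold of the measured means. Olfr1089 (at least 5.09-fold lower, means -0.84 and -3.85) read 203, 78.1 and 16.9 and then 23.4, 10.9 and 40.4, which overlap before scaling. The limma adjusted p was 0.638 for each of them.

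These bounds are those of the processed signal over all 6 arrays, and the size of the differences depended on the background correction. With normexp the log2 differences were 3.37 for Olfr517, 2.70 for Olfr156, 2.29 for Olfr616, 1.50 for Olfr713 and 0.47 for Olfr1502. In the other direction they were -2.35 for Olfr1337, -1.96 for Olfr617, -1.72 for Olfr452, -1.65 for Olfr1089 and -1.44 for Olfr1263. None of these reaches the bound printed for its gene, and Olfr156 has no bound. Without 2T-WT replicate 1 the difference of Olfr617 was -2.58, and without 2T-WT replicate 2 that of Olfr1337 was -2.24, both short of the bound as well. The bounds of Olfr616, Olfr713, Olfr452, Olfr1089 and Olfr1263 were also missed with at least 1 array left out. Those of Olfr452 and Olfr1263 were missed with quantile normalization and with the authors' values. Those of Olfr617 and Olfr452 were missed with the slide as a block.

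There were 15 members above background on all 3 2T-p190-B-/- arrays and on no 2T-WT array, 1.28% of receptor probes beside 0.727% of all other probes, and 0 members in the reverse case, beside 22 of all other probes (0.0575%). Such members passed the choice through the genotype where they are bright. The folds are lower bounds as above. Olfr1502 (chr19:13937149-13937208) read 7.67, 4.08 and 3.22 in 2T-WT and 60.2, 424 and 182 in 2T-p190-B-/-, at least 4.21-fold higher, with measured means of -4.63 and -0.92 and a limma adjusted p of 0.635. Olfr913 (chr9:38402686-38402745) read 4.97, 6.83 and 2.67 and then 127, 224 and 28.7, at least 2.36-fold higher, with means of -4.68 and -1.75. Olfr446 had scaled log2 signals of -4.64, -3.86 and -3.69 and then -0.94, -1.89 and -3.00, at least 1.98-fold higher, with means of -4.06 and -1.94. Probe 2 for Olfr351 read 4.23, 9.95 and 2.42 and then 38.0, 95.6 and 60.4, at least 1.52-fold higher, with means of -4.62 and -2.38. The other Olfr351 probe, which overlaps it, was above background on no array, with means of -4.94 and -5.40. The adjusted p was 0.638 by limma for the last 3 genes, and with normexp background correction their differences were -0.16 for Olfr913, -0.28 for Olfr446 and -0.52 for Olfr351, opposite in sign.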

How the data were processed

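The authors deposited the scanner output of 6 Agilent whole mouse arrays, read with Feature Extraction 10.5.1.1, in which the processed signal is an intensity on a linear scale, with flags per spot. The authors also deposited a processed value per spot, which is the ratio of that signal to 1 number per array, equal to within 0.00126%. Probe positions are those of the files, build mm9.

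Control and outlier spots were left out. The scaled signal is log2 of the processed signal less that of the 75th percentile of its array, with repeated spots averaged, and a repeated probe counts as above background where 50% or more of its usable spots do. Probes above background on at least 3 arrays were tested with limma 3.58.1 (lmFit and eBayes, R 4.3.3, no covariates, Benjamini-Hochberg), and in simulated data most added differences of 4 log2 units were missed and most of 8 were called. The number of arrays limits the precision. Named genes are the 5 members in each direction, at least 2-fold different without overlap, that limma gave the smallest p, the 6 members on all arrays with the smallest SD, receptors described outside the nose, up to 4 members per direction on all arrays of a single genotype, and the first 3 genes by name whose probes differ in detection. Other named receptors are the members spotted many times and examples chosen after their values were seen. The members, lists and rules were chosen with earlier results of these data known.

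Alternatives were quantile normalization, normexp with an offset of 50, no filter, a filter on all 6 arrays, the authors' values, a block for the slide or the replicate number, robust variance with an intensity trend, the methods' t-test, other detection rules, and each array left out.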

Additional observations from a re-analysis of the deposited data

How the results depend on the processing

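Members with an adjusted p under 0.05 numbered 0 in all 9 alternatives of the test and without each array in turn. The count at an unadjusted p under 0.05, 63, was 127 (19.5%, beside 14.4% of all probes) with normexp background correction and 23 of 262 (8.78%, beside 7.24%) with probes above background on all 6 arrays, where fewer probes were tested, and ran from 29 (4.47%, beside 4.46%) to 73 (11.3%, beside 9.74%) without each array. Members without overlap, 132, numbered 208 with normexp (31.9%, beside 23.7% of all probes) and 55 with probes on all 6 arrays (21.0%, beside 17.3%). Without each array they numbered 170 to 236 (26.2% to 36.3%, beside 23.2% to 32.6%), where fewer values have to separate. The median difference of -0.40 was -0.74 with normexp, between -0.59 and -0.28 in the other alternatives, and -0.53 to -0.27 without each array. The cause of the shifts with normexp was not tested. The number of detected genes, 620, was 253 at all 6 arrays and 891 at 1 or more. It was 888 with the scanner's weaker call against local background, 649 against the 99th percentile of negative control spots, and 548 to 608 without each array. At all 6 arrays 22.4% of receptor probes were detected, beside 35.3% of all other probes, and at 1 or more 81.4% beside 83.2%. With the weaker call the shares were close, at 80.7% beside 81.3%. Against the negative control spots they were 58.5% beside 64.0%, and without each array 49.2% to 55.0% beside 57.0% to 62.6%. The difference in the share of receptor probes detected, 8.92 points, was 4.44 to 11.5 under other calls and 2.88 to 15.9 without each array. Of the selected genes, Olfr913, Olfr351 and Olfr446 turned to -0.16, -0.52 and -0.28 with normexp. The 10 genes selected by the smallest p kept their direction and came out smaller with normexp, such as Olfr156 at 2.70 for 3.88. These are differences of measured means. For probes not above background on every array of the dimmer genotype they give no exact size. For Olfr913, Olfr351 and Olfr446 the direction depended on the background correction as well. Without each array in turn all 13 of these genes kept their direction, and Olfr156, above background on every array, ran from 3.15 to 4.95.

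With the replicate number as a block, 70 members (10.7%, beside 7.45% of all probes) had an unadjusted p under 0.05 and 0 an adjusted one. Overlap was counted on the same values without the block, so the 132 could not change. Each number holds an array of each genotype, so the block also leaves the difference of a probe with all values as it was (median -0.40). Deviations of same-numbered arrays correlated at 0.009, 0.016 and 0.086, so no pairing by number was seen. With so few arrays these values cannot exclude one.

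Signals near background limit the fold of dim receptors. Slide 1 holds 2T-WT replicate 1 alone, slide 3 holds 2T-p190-B-/- replicate 3 alone, and slide 2 holds the other arrays of both genotypes.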
